A study of Homo sapiens with 4 samples.

Results

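The mRNAs of cholesterol synthesis and sterol regulation were followed in LX-2, a human hepatic stellate cell line that was immortalised. The members were chosen by name: 29 genes for the mevalonate and sterol enzymes, for the control of SREBP transcription factors, and for the uptake, transport and storage of sterol. All 29 were found among the 63241 genes of the deposited table. The list does not cover every gene of the pathway. Of the 29, 28 reached a scaled level of 1 count in 1000000 counts (CPM) in at least 1 library, and NSDHL did not.

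The study compared 4 groups, with 1 library each. All cells were LX-2 cells that had been kept for 24 h in 0.5% serum. The control is labelled only as such, and its label does not say whether it received vehicle. The TGF-β group received TGF-β at 20 ng/mL for 24 h, and its label also names DMSO. The BDS4 and RVX-208 groups received the same TGF-β together with 5 µM of the named compound for 24 h, and are called "with BDS4" and "with RVX-208" here. RVX-208, also called apabetalone, inhibits BET proteins with a preference for the second of their bromodomains. BDS4 is a code name, in a series whose title concerns covalent inhibitors of the first bromodomain. With 1 library of 1 cell line per group there is no replicate check, and no difference could be compared with the variation between cultures.

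Cells make cholesterol from acetyl-CoA through mevalonate, isoprenoid diphosphates and squalene, and the sterol ring is then trimmed by a series of enzymes in the endoplasmic reticulum. When membranes hold little sterol, SCAP carries the transcription factor SREBP-2 from the endoplasmic reticulum to the Golgi, where it is cut and released to switch on these genes. INSIG1 and INSIG2 hold SCAP back when sterol is plentiful, and INSIG1 is itself a target of SREBP. Stellate cells store retinyl esters and other lipids in droplets in their quiescent state and lose them on activation.

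Stretches of 148 to 224 bases from the promoters of 5 members are printed because these genes share control by SREBP-2 as background and yet had different levels with BDS4. HMGCS1 and MSMO1 fell with BDS4, INSIG1 was highest there, STARD4 stayed near its level with TGF-β, and SREBF2 encodes the factor itself. Sequences are from RefSeq (GRCh38.p14), 5′ to 3′ on the gene's strand. Each starts 250 bases before the RefSeq start site and ends just before the gene's outermost start in GENCODE 29. Capitals mark the string CCAAT or its reverse complement ATTGG, the core of an NF-Y box, and in SREBF2 also the string TCACNCCAC of a sterol regulatory element. The stretches are chr5:43313513-43313662 (minus strand) for HMGCS1, chr4:165327419-165327622 (plus strand) for MSMO1, chr7:155297628-155297775 (plus strand) for INSIG1, chr5:111512591-111512785 (minus strand) for STARD4 and chr22:41832855-41833078 (plus strand) for SREBF2.
HMGCS1: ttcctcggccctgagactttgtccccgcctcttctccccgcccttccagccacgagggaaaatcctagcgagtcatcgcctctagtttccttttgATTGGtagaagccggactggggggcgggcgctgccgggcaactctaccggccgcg
MSMO1: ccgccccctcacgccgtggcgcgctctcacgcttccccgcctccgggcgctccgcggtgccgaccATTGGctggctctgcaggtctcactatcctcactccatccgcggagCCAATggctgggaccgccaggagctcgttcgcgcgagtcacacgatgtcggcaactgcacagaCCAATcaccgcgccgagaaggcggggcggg
INSIG1: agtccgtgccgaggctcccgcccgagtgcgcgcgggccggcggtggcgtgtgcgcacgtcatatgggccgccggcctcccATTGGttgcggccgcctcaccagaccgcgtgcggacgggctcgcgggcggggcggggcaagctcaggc
STARD4: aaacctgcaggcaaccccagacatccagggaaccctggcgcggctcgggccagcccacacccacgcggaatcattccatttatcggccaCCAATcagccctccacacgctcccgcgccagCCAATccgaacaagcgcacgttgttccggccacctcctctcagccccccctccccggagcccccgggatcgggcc
SREBF2: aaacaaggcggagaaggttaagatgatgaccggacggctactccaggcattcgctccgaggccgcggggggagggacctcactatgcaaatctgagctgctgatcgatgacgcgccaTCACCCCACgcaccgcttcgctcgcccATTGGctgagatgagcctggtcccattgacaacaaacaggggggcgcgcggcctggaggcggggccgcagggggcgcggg

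RefSeq windows of 300 bases, 250 before to 50 after the start site, matched 26 of the 29 members, and ACAT2, FDFT1 and SQLE had no entry. They were searched for 4 strings on both strands. CCAAT was found in 17 of 26 (65.4%), against 34.6% of all 35116 windows and 36.9% of the 11189 windows of tested genes. GGGCGG, the SP1 box, was found in 23 of 26 (88.5%), against 45.0% and 69.5%. CACGTG, an E-box, was in 4 of 26, namely INSIG1, LSS, SC5D and SCAP (15.4%, against 7.26% and 10.1%). The exact string TCACNCCAC was in SREBF2 alone (3.85%, against 1.13% and 1.16%). Sterol regulatory elements that differ from this string were not searched for, so its absence does not mean that a window lacks such an element. No letters of a CCAAT match in the printed stretches were part of the TCACNCCAC match. Over the whole windows MSMO1 held 4 CCAAT matches, HMGCS1 and STARD4 2 each, and INSIG1 and SREBF2 1 each. CCAAT was in windows both of genes that fell with BDS4 and of INSIG1, and a link between the string and their levels was not tested. These matches describe letters in the windows.

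Library totals ranged from 17022369 to 22503094 counts, and a floor of 3 counts stood for 0.126 to 0.178 CPM. Of 14 stellate and mesenchymal markers, 11 reached 1 CPM in some library, and their summed level ranged from 5578 CPM with BDS4 to 10674 CPM with TGF-β alone. LRAT, the retinol-esterifying enzyme of quiescent stellate cells, had 0 counts in all 4 libraries. DES and DCN had 0 counts in every library but that with BDS4. There they had 11 and 3 counts (0.539 and 0.147 CPM), both under 1 CPM. The 9 hepatocyte markers summed to 1.62 to 3.80 CPM, with APOA2, CYP3A4, CYP7A1, FGB and TTR at 0 in every library. Mitochondrial ribosomal RNA took 0.903% of counts with BDS4, against 0.212% in the control, 0.248% with TGF-β alone and 0.230% with RVX-208. The nuclear RNA NEAT1 stood at 968 CPM with BDS4 and at 66.8, 60.6 and 127 CPM in the other libraries, in the same order. Cholangiocyte markers summed to 24.3 to 105 CPM, leukocyte markers to 12.5 to 35.7 and endothelial markers to 1.57 to 3.26. By the 2-fold rule given below, 6 of the 11 stellate markers were lower with BDS4 than with TGF-β, and TIMP1 was higher. Of all tested genes 17.7% were lower and 14.5% higher. Among the lower ones were COL1A1 and COL1A2, the latter at only 8.20 CPM with TGF-β and 0.196 with BDS4. The part of these differences in the results with BDS4 was not tested.

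A gene was called higher ("rose") or lower ("fell") where the ratio of scaled counts was at least 2 in either direction and its 95% interval excluded 1. This is a rule of size with no test across cultures. Intervals, given in brackets, cover counting error only. In these bulk samples a change in a member's RNA per cell and a change in the mix of cells cannot be told apart. Fold values and CPM are on the scale of TMM-scaled counts.

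The members as a whole took 0.210% (0.208 to 0.212) of counts in the control and 0.415% (0.412 to 0.418) with TGF-β alone. With BDS4 their share was 0.308% (0.305 to 0.310), and with RVX-208 0.441% (0.438 to 0.445). The set thus stood lowest in the control and highest with RVX-208, and its share with BDS4 lay between those of the control and of TGF-β alone, with no overlap between the counting intervals. The roles differed in this. Mevalonate and isoprenoid enzymes summed to 0.0611% in the control, 0.139% with TGF-β, 0.0624% with BDS4 and 0.145% with RVX-208. The intervals of these shares overlapped for the control (0.0600 to 0.0621) and BDS4 (0.0614 to 0.0635). On the scale of TMM-scaled counts, however, the sum with BDS4 was 1.15-fold (1.12 to 1.18) of control, beyond counting error. For uptake, transport and storage the library with BDS4 was the highest, at 0.0811% against 0.0357%, 0.0504% and 0.0571% in the control, with TGF-β and with RVX-208.

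**Figure D1:**
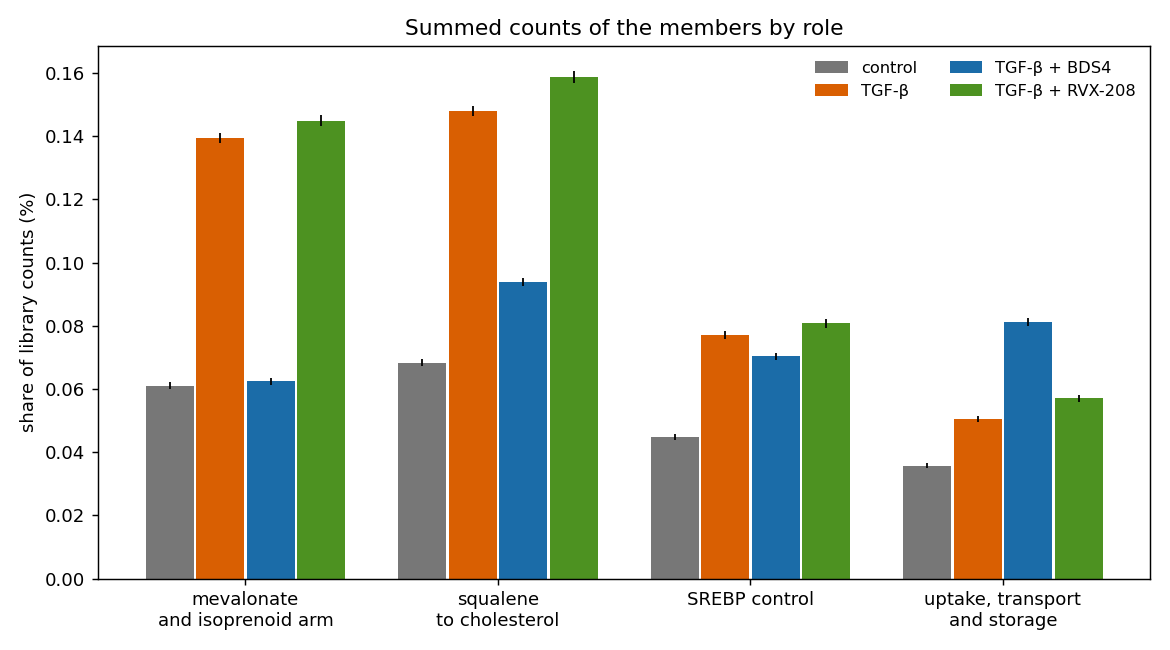
Summed counts of the members by role (x axis), as a share of each library's counts in percent (y axis), with 1 bar per library and 95% exact binomial intervals as error bars. The shares are taken before TMM scaling. The bars with BDS4 are near the control for the mevalonate arm (0.0624% and 0.0611%) and highest of the 4 for uptake, transport and storage (0.0811%).

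With TGF-β alone against control, 11 of 28 members rose and 0 fell, which is 39.3% of members, where 5.32% of all 16099 tested genes were called higher and 4.35% lower. The median log2 ratio of the members was 0.75, and that of all tested genes -0.01. With RVX-208 against TGF-β alone, 1 member rose and 0 fell (3.57% higher, against 2.94% of tested genes higher and 5.23% lower). The median was 0.21 for members and -0.0009 for all genes. With BDS4 against TGF-β alone, 8 members fell and 5 rose. Those are 28.6% and 17.9% of members, against 17.7% and 14.5% of all tested genes, so the share that rose lay near the background. The median was 0.02, close to that of all genes (-0.01), while the members ranged from -1.57 to 2.06. These comparisons share the TGF-β library.

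**Figure D2:**
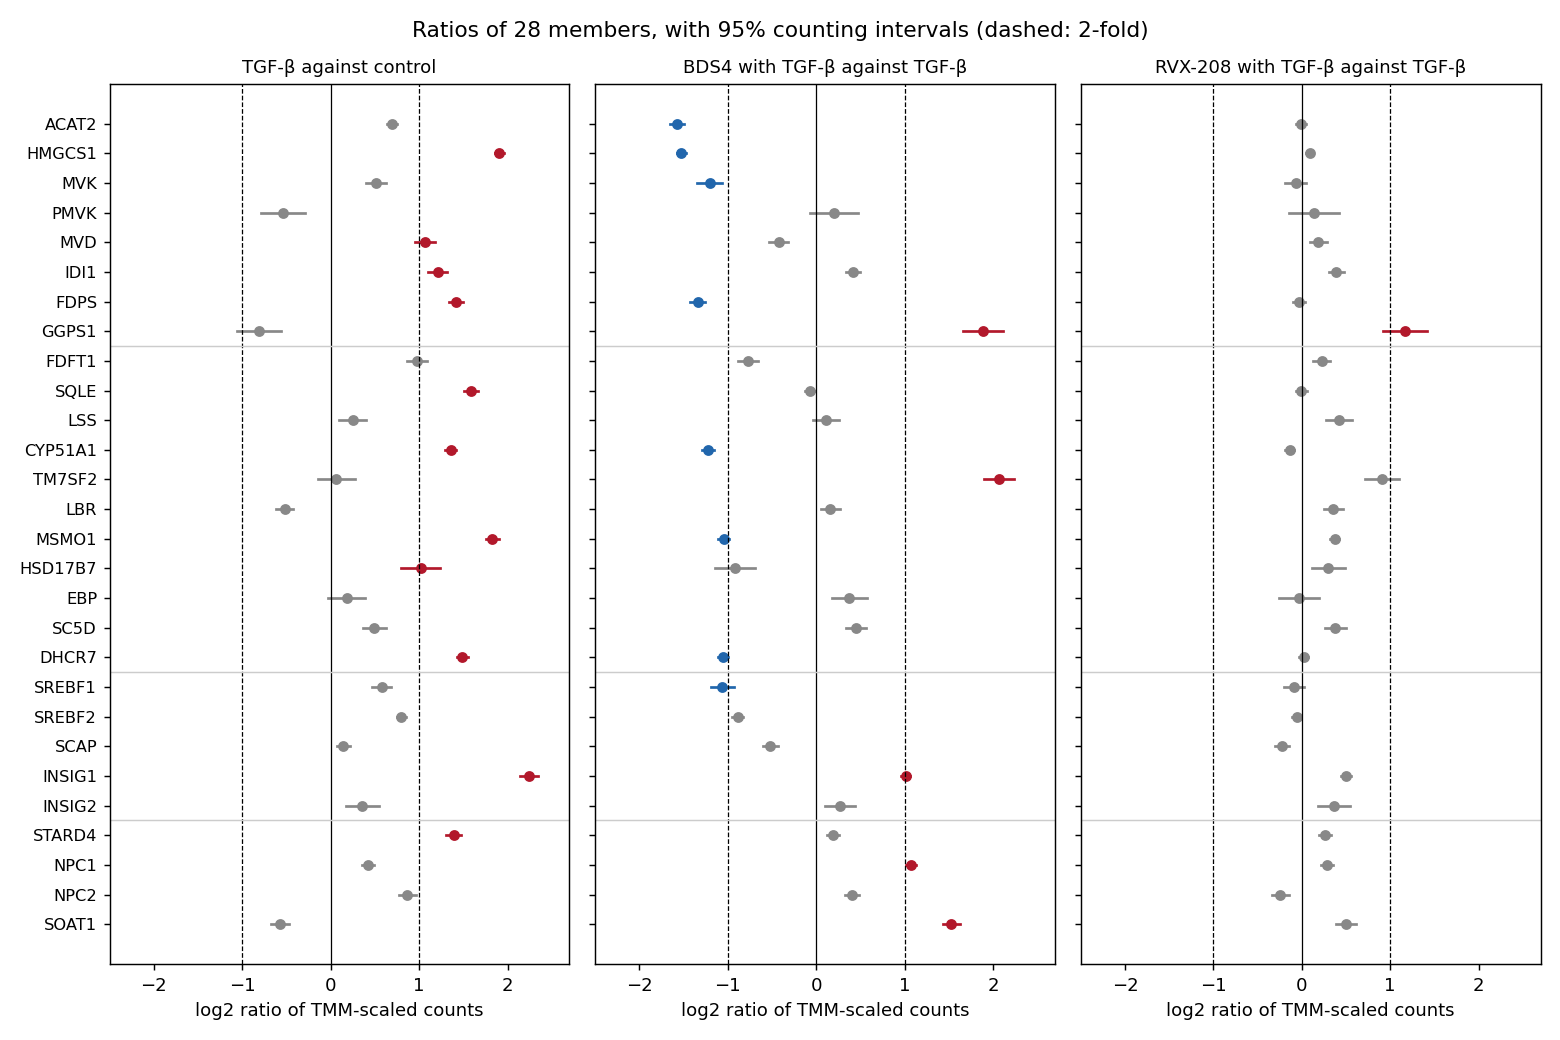
Log2 ratios (x axis) of the 28 members above 1 CPM (y axis, grouped by role, grey lines between roles), with points for the ratio and bars for the 95% counting interval. Red marks a member called higher and blue one called lower. TGF-β has 11 red and 0 blue points, BDS4 has 5 red and 8 blue, and RVX-208 has 1 red.

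Each compound was also set against the control, and these comparisons share the control library. With RVX-208, 12 of 28 members stood at least 2-fold above control and 0 below (42.9%, against 5.39% of tested genes higher and 6.86% lower). They were the 11 members raised by TGF-β alone and FDFT1. With BDS4, 8 were higher and 0 lower (28.6%, against 14.9% of tested genes higher and 18.2% lower). Of the 11 members that TGF-β raised, 4 stayed at least 2-fold above control with BDS4, namely INSIG1, IDI1, STARD4 and SQLE. The other 7, HMGCS1, MVD, FDPS, CYP51A1, MSMO1, HSD17B7 and DHCR7, were within 2-fold of it. Of the 28 measured members, 9 were highest with BDS4, 9 with RVX-208, 8 with TGF-β alone and 2 in the control. Among all tested genes the shares were 38.9%, 14.3%, 21.1% and 25.7%.

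Both compounds were used at the same dose and time, and were also set against each other. Whether this dose acted equally strongly for both was not tested. With BDS4 against RVX-208, 8 members were lower and 2 higher (28.6% and 7.14%, against 13.1% and 11.7% of tested genes). The lower ones were HMGCS1, ACAT2, MSMO1, FDPS, HSD17B7, MVK, CYP51A1 and DHCR7, and the higher ones TM7SF2 and SOAT1. The median log2 ratio was -0.25 for the members and -0.01 for all tested genes. Under a rule of 1.5-fold, with the shares of all tested genes in brackets, 15 members were higher and 1 lower with TGF-β alone than in the control (10.1% and 8.99%). With BDS4 against TGF-β alone, 5 were higher and 11 lower (24.5% and 26.5%), and with RVX-208 against TGF-β alone 2 and 0 (6.6% and 10.4%). Against control, 13 were higher and 2 lower with BDS4 (25.1% and 27.5%), and 20 and 0 with RVX-208 (10.7% and 12.8%). With BDS4 against RVX-208, 5 were higher and 12 lower (21% and 21.8%).

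Of the 8 members in the mevalonate and isoprenoid arm, 4 rose with TGF-β and 0 fell. With BDS4 against TGF-β, 4 fell and 1 rose. Of all tested genes 5.32% were higher and 4.35% lower with TGF-β, and 17.7% were lower and 14.5% higher with BDS4. HMGCS1 (ENSG00000112972, chr5:43289395-43313512 in GRCh38), which joins acetyl-CoA units to HMG-CoA, stood at 170.4 CPM in the control, 639 with TGF-β alone, 222 with BDS4 and 678 with RVX-208. Its level with BDS4 was thus near the control and the other libraries under TGF-β were both far above it. TGF-β raised it 3.75-fold (3.62 to 3.88), and with BDS4 it fell 2.88-fold (2.79 to 2.98) from there, to 1.30-fold (1.25 to 1.36) of control. ACAT2, the cytosolic thiolase that supplies the pathway, had 172 CPM in the control, 277 with TGF-β alone, 93.1 with BDS4 and 275 with RVX-208. It fell 2.98-fold (2.83 to 3.14) with BDS4 and was then below control by 1.84-fold (1.75 to 1.95), under the 2-fold rule. ACAT2 shares 9.23% of its exon bases with TCP1 on the other strand, which had 4368 counts with TGF-β and 5216 with BDS4. No source used here states whether the counting used strand.

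Among the kinases and the decarboxylase that turn mevalonate into isopentenyl diphosphate, the members differed. MVK, mevalonate kinase, stood at 45.1 CPM in the control, 64.4 with TGF-β alone, 27.95 with BDS4 and 61.4 with RVX-208. It fell 2.30-fold (2.09 to 2.54) with BDS4 and was the lowest there of all libraries. It shares 4.72% of its exon bases with MMAB on the other strand, whose counts were 953 with TGF-β and 374 with BDS4. PMVK, the next kinase, was highest in the control, with 14.9, 10.3, 11.8 and 11.3 CPM in the control, with TGF-β, with BDS4 and with RVX-208. It was not called in any of the 6 comparisons, and the 3 libraries under TGF-β did not differ beyond counting error in it. MVD, mevalonate diphosphate decarboxylase, had 38.7, 81.0, 60.4 and 92.2 CPM in the same order. It rose 2.09-fold (1.93 to 2.27) with TGF-β, which total-count scaling put just under the rule (log2 ratio 0.99), and its log2 ratio with BDS4 against TGF-β was -0.42 (-0.53 to -0.32).

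IDI1, which isomerises isopentenyl diphosphate, stood at 43.1 CPM in the control, 99.7 with TGF-β alone, 133 with BDS4 and 131 with RVX-208. It rose 2.31-fold (2.15 to 2.49) with TGF-β and was 3.08-fold (2.87 to 3.32) above control with BDS4. Its levels with BDS4 and with RVX-208 did not differ beyond counting error. FDPS, which makes farnesyl diphosphate, went from 74.95 CPM in the control to 200.04 with TGF-β, and stood at 79.0 with BDS4 and 196 with RVX-208. It rose 2.67-fold (2.53 to 2.82) with TGF-β and fell 2.53-fold (2.39 to 2.68) with BDS4, where it did not differ from control beyond counting error. Its 8 named pseudogenes had at most 7 counts each in any library. GGPS1, which extends farnesyl to geranylgeranyl diphosphate for protein prenylation, ran the other way, with 16.6 CPM in the control, 9.47 with TGF-β alone, 35.0 with BDS4 and 21.2 with RVX-208. It was lowest with TGF-β alone, and was higher by 3.70-fold (3.17 to 4.34) with BDS4 and 2.24-fold (1.88 to 2.67) with RVX-208. GGPS1 shares 37.3% of its exon bases with TBCE on the same strand. TBCE had 173 counts with TGF-β alone, 142 with BDS4 and 116 with RVX-208. With both genes summed, the call with RVX-208 ended (log2 ratio 0.70). TBCE counts did not rise with RVX-208, which draws the summed ratio toward 1, so the sum cannot decide whether GGPS1 itself was higher. GGPS1 is uncertain because of the shared bases. It was 2.11-fold (1.86 to 2.39) above control with BDS4, which fell under the rule with both genes summed (log2 ratio 0.90) and with total-count scaling (0.91).

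**Figure D3:**
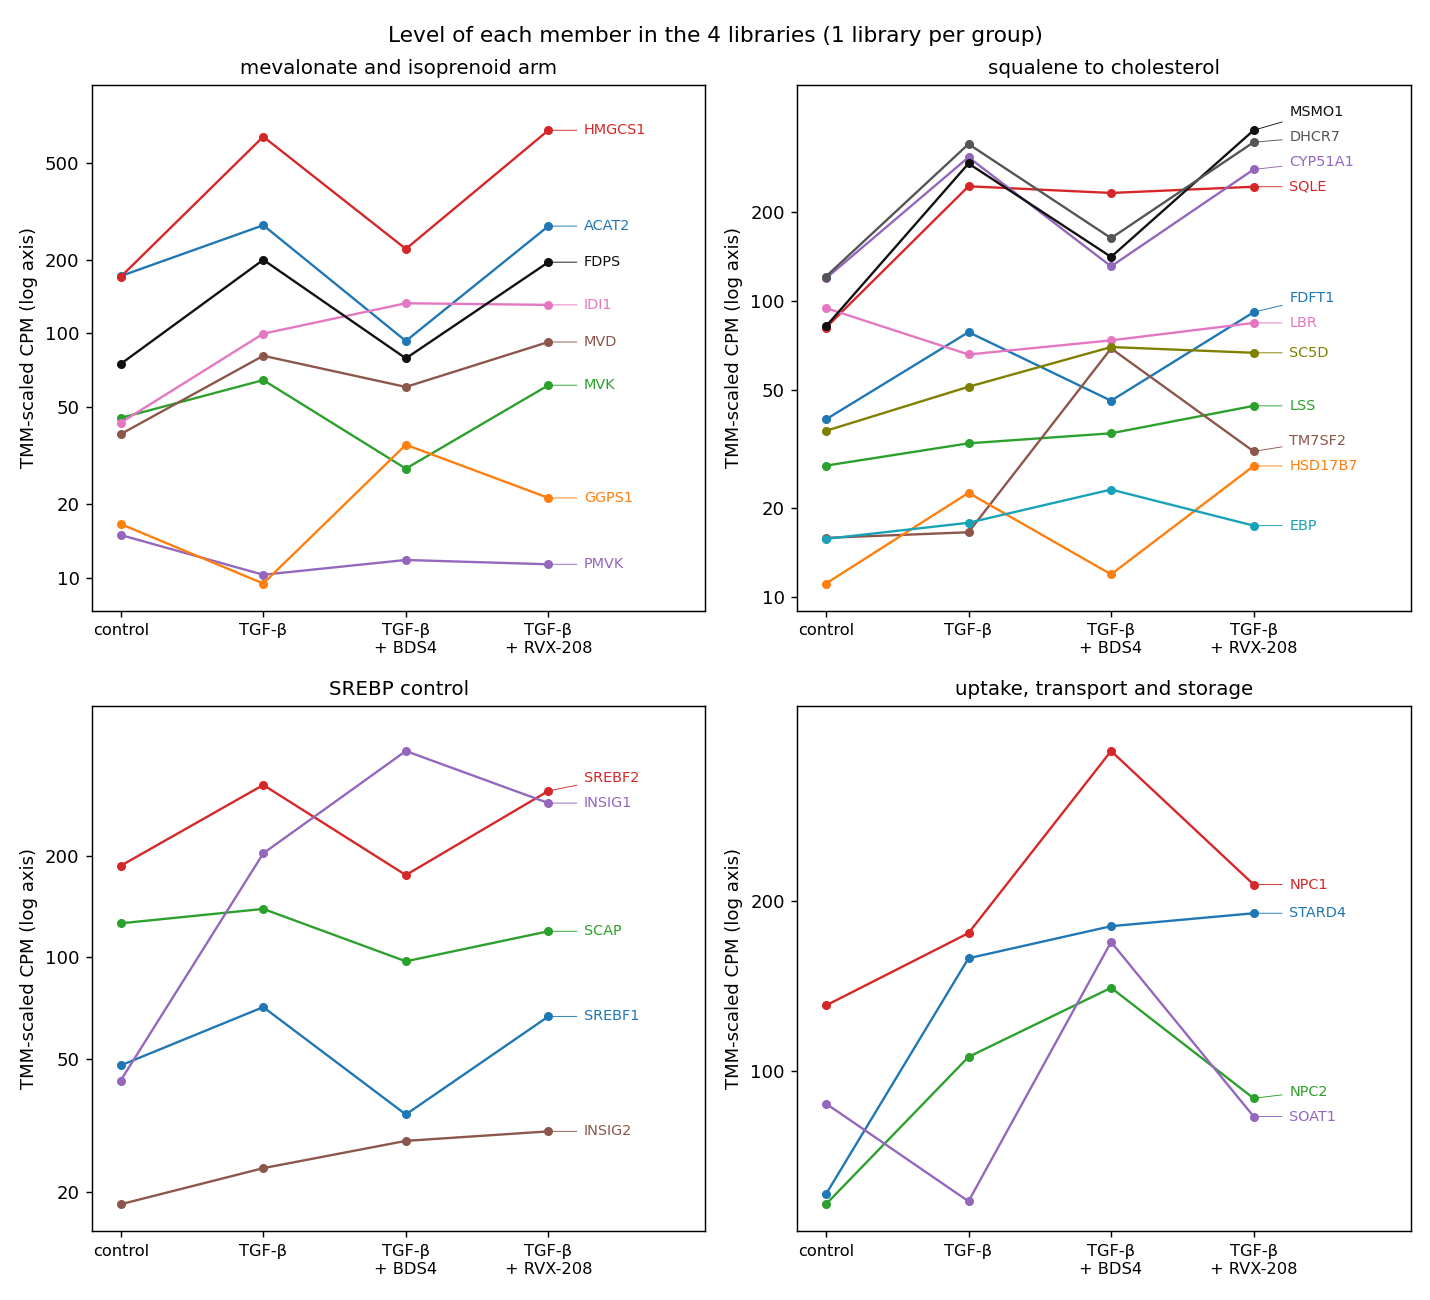
Level of the 28 members above 1 CPM in TMM-scaled CPM (y axis, log scale) in the 4 libraries (x axis), 1 panel per role. Points are single libraries and lines only join the points of a gene. HMGCS1, ACAT2, FDPS, MSMO1, DHCR7 and CYP51A1 drop from TGF-β to BDS4, while INSIG1, NPC1, SOAT1, TM7SF2 and GGPS1 climb.

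Of the 11 measured enzymes from squalene to cholesterol, 5 rose with TGF-β and 0 fell. With BDS4 against TGF-β, 3 fell and 1 rose, and with RVX-208 none was called. Of all tested genes 5.32% were higher and 4.35% lower with TGF-β. With BDS4 17.7% were lower and 14.5% higher, and with RVX-208 5.23% and 2.94%. These small counts with BDS4 were not tested against that share. SQLE, squalene epoxidase and a rate-limiting step, stood at 81.2 CPM in the control, 244 with TGF-β alone, 231 with BDS4 and 243 with RVX-208. It rose 3.00-fold (2.85 to 3.16) with TGF-β, and all 3 libraries under TGF-β were close to one another, well above the control. With BDS4 its log2 ratio to TGF-β was -0.07 (-0.13 to -0.02). FDFT1, which makes squalene, had 39.8, 78.4, 46.0 and 91.5 CPM in the control, with TGF-β, with BDS4 and with RVX-208. It was 1.97-fold (1.82 to 2.14) higher with TGF-β, just under the rule, and 2.30-fold (2.12 to 2.50) above control with RVX-208.

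CYP51A1, which removes the 14α-methyl group of lanosterol, stood at 119 CPM in the control, 306 with TGF-β alone, 131 with BDS4 and 278 with RVX-208. It rose 2.57-fold (2.46 to 2.68) with TGF-β and fell 2.34-fold (2.23 to 2.44) with BDS4, to near the control. In the same order its pseudogene CYP51A1P2 had 95, 188, 91 and 177 counts, with the highest count in the same library. MSMO1, the C4-methyl oxidase, had 82.0 CPM in the control, 291 with TGF-β alone, 141 with BDS4 and 376.97 with RVX-208. This was 3.55-fold (3.38 to 3.74) higher with TGF-β than in the control, and 2.07-fold (1.98 to 2.16) lower with BDS4 than with TGF-β alone. With BDS4 it remained 1.72-fold (1.62 to 1.82) above control. DHCR7, the reductase of the last step to cholesterol, had 121 CPM in the control, 339 with TGF-β alone, 163 with BDS4 and 343 with RVX-208. It rose 2.80-fold (2.68 to 2.93) with TGF-β and fell 2.08-fold (1.996 to 2.17) with BDS4, and its levels with TGF-β alone and with RVX-208 did not differ beyond counting error.

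HSD17B7, a ketoreductase of the C4 demethylation complex, had 11.1, 22.46, 11.9 and 27.7 CPM in the control, with TGF-β, with BDS4 and with RVX-208. It rose 2.02-fold (1.74 to 2.36) with TGF-β, which total-count scaling put under the rule (log2 ratio 0.95), and was 2.32-fold (1.99 to 2.72) lower with BDS4 than with RVX-208. Its pseudogene HSD17B7P2, a close copy, had at most 39 counts. NSDHL, the dehydrogenase of the same complex, had 0 counts in the control and with TGF-β, 3 with BDS4 and 2 with RVX-208. All 4 values are at or under the floor of 3 counts, so no fold is given. Whether they reflect low expression or how the authors' annotation and counting treated the gene was not tested. NSDHL (ENSG00000147383, chrX:152830967-152869729 in GRCh38) shares no exon bases with another gene in GENCODE 29.

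The C14 sterol reductase step can be carried out by TM7SF2 or by LBR, a protein of the inner nuclear membrane. TM7SF2 stood at 15.8 CPM in the control, 16.5 with TGF-β alone, 69.1 with BDS4 and 31.0 with RVX-208. The library with BDS4 was far above the other 3, by 4.18-fold (3.72 to 4.70) against TGF-β and 2.23-fold (2.01 to 2.47) against RVX-208. Control and TGF-β alone did not differ beyond counting error. TM7SF2 shares 16 exon bases, 0.47% of its own, with VPS51 on the same strand. VPS51 had 1853 counts with TGF-β and 961 with BDS4, and TM7SF2 365 and 1409. When both genes were summed the log2 ratio with BDS4 was 0.21 against TGF-β and 0.15 against RVX-208, and both calls ended. VPS51 was lower where TM7SF2 was higher and had more counts with TGF-β, so the sum cannot decide whether TM7SF2 itself was higher. LBR had 94.6, 65.9, 73.6 and 84.2 CPM in the control, with TGF-β, with BDS4 and with RVX-208, and was not called in any comparison. The deposited FPKM of LBR was 4.50 (4.01 to 5.06) times that of TM7SF2 with TGF-β alone and 1.20 (1.12 to 1.29) times with BDS4. These ratios depend on the gene lengths behind the FPKM, which did not follow exon bases. With BDS4, LBR had 1500 counts over 5257 exon bases and TM7SF2 1409 counts over 3408. Which of them stood higher there thus depends on the lengths used.

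LSS, lanosterol synthase, ranged from 27.8 CPM in the control to 44.2 with RVX-208. EBP, the sterol isomerase, ranged from 15.7 in the control to 23.0 CPM with BDS4, and SC5D, the C5 desaturase, from 36.4 in the control to 69.8 with BDS4. None of them was called in the 6 comparisons.

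Of the 5 members for SREBP control, INSIG1 rose with TGF-β and none fell, and with BDS4 against TGF-β INSIG1 rose and SREBF1 fell. Of all tested genes 5.32% were higher and 4.35% lower with TGF-β, and 14.5% and 17.7% with BDS4. INSIG1 (ENSG00000186480, chr7:155297776-155310235 in GRCh38) stood at 43.0 CPM in the control, 204 with TGF-β alone, 411 with BDS4 and 288 with RVX-208. Unlike HMGCS1, it was highest with BDS4, and the 4 libraries differed from one another beyond counting error. It rose 4.74-fold (4.43 to 5.08) with TGF-β and was 9.55-fold (8.95 to 10.2) above control with BDS4. Against TGF-β alone the ratio with BDS4 was 2.02-fold (1.94 to 2.09), just past the rule, and the call ended under each of 3 other scalings (log2 ratio 0.91 to 0.99). INSIG2, its paralog, had 18.4, 23.6, 28.4 and 30.4 CPM in the control, with TGF-β, with BDS4 and with RVX-208. It was lowest in the control and not called in any comparison. The deposited FPKM of INSIG1 was 1.84 (1.65 to 2.07) times that of INSIG2 in the control and 6.82 (6.23 to 7.49) times with TGF-β. It was 11.4 (10.5 to 12.4) times with BDS4 and 7.49 (6.83 to 8.22) times with RVX-208. The size of these ratios depends on the gene lengths behind the FPKM.

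SREBF2 encodes SREBP-2, the main activator of sterol genes. It stood at 187 CPM in the control, 326 with TGF-β alone, 176 with BDS4 and 313 with RVX-208. Under TGF-β it was 1.74-fold (1.68 to 1.81) above control, and with BDS4 it was 1.85-fold (1.78 to 1.93) below TGF-β, both under the 2-fold rule. SREBF1 encodes SREBP-1, which favours genes of fatty acid synthesis. It had 47.7 CPM in the control, 71.1 with TGF-β alone, 34.1 with BDS4 and 66.7 with RVX-208 and fell 2.09-fold (1.91 to 2.28) with BDS4 against TGF-β. It shares 6.92% of its exon bases with RAI1 on the other strand, which had 2556 counts with TGF-β and 603 with BDS4. Both SREBF genes and SCAP, the sterol sensor that escorts SREBP, were lowest with BDS4. SCAP ranged from 97.3 CPM there to 139 with TGF-β and was not called.

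Of the 4 members for transport and storage, NPC1, NPC2 and SOAT1 were highest with BDS4 and STARD4 with RVX-208. NPC1, the membrane protein that exports cholesterol from lysosomes, had 131 CPM in the control, 176 with TGF-β alone, 369 with BDS4 and 214 with RVX-208. It was 2.10-fold (2.02 to 2.19) higher with BDS4 than with TGF-β alone and 2.83-fold (2.71 to 2.95) higher than in the control. Under total-count scaling the first of these ended as a call (log2 ratio 0.97). NPC1 shares 5.98% of its exon bases with RMC1 on the other strand, which had 1282 counts with TGF-β and 2316 with BDS4. NPC2, its soluble partner in the lysosome, had 58.0, 106, 140.5 and 89.5 CPM in the control, with TGF-β, with BDS4 and with RVX-208, and was 2.42-fold (2.27 to 2.58) above control with BDS4.

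SOAT1, which esterifies cholesterol for storage in droplets, stood at 87.6 CPM in the control, 58.7 with TGF-β alone, 169 with BDS4 and 83.0 with RVX-208. It was lowest with TGF-β alone and highest with BDS4, where it was 2.88-fold (2.704 to 3.08) above TGF-β and 2.04-fold (1.92 to 2.17) above RVX-208. The second of these calls ended under total-count scaling (log2 ratio 0.96) and with TMM factors over all genes (0.99). STARD4, a cytosolic sterol carrier, had 60.5 CPM in the control, 158 with TGF-β alone, 181 with BDS4 and 190.4 with RVX-208. It rose 2.62-fold (2.46 to 2.79) with TGF-β, and the 3 libraries under TGF-β lay close together, all well above the control.

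Ratios between members within a library do not depend on how libraries are scaled. The FPKM of HMGCS1 was 3.06 (2.85 to 3.27) times that of INSIG1 in the control, 2.42 (2.34 to 2.50) times with TGF-β and 1.82 (1.76 to 1.88) times with RVX-208, but 0.416 (0.401 to 0.431) times with BDS4. By FPKM, HMGCS1 was above INSIG1 in 3 libraries and below it in that with BDS4. Against SQLE, HMGCS1 stood at 1.43 (1.38 to 1.47) times with TGF-β and 0.521 (0.500 to 0.543) times with BDS4, and against NPC1 at 4.74 (4.57 to 4.91) and 0.782 (0.753 to 0.811) times. In each of these pairs BDS4 gave the one library with HMGCS1 below the other gene. Over all members, ACAT2 had the highest FPKM in the control (54.9), with TGF-β (84.4) and with RVX-208 (82.0), where MSMO1 was next at 80.1. With BDS4 INSIG1 was first (47.5) and SQLE next (37.9), with ACAT2 at 26.5. This order, and which gene of a pair stood higher, depend on the gene lengths behind the FPKM. Those lengths did not follow exon bases. With TGF-β, MSMO1 had 6428 counts over 2892 exon bases and an FPKM of 63.2. ACAT2 had fewer counts (6119) over more exon bases (4299), yet an FPKM of 84.4. The order is therefore not a ranking of counts per exon base.

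**Figure D4:**
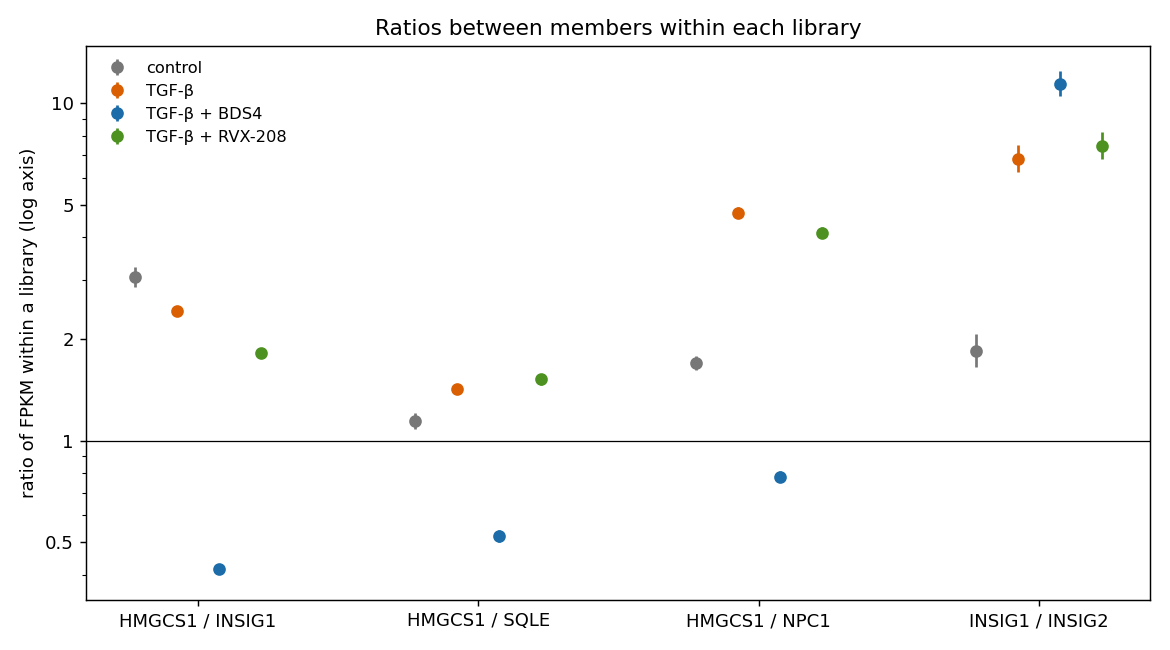
Ratio of deposited FPKM between pairs of members within each library (y axis, log scale) for 4 pairs (x axis), with 95% conditional counting intervals as bars. The points with BDS4 lie under 1 for HMGCS1 over INSIG1, over SQLE and over NPC1, and are the highest of the 4 for INSIG1 over INSIG2 (11.4). Where a pair lies against 1 depends on the gene lengths behind the FPKM.

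Other genes of the pathway were taken from 5 lists. Of 16 genes for fatty acid synthesis and targets of SREBP-1, 3 rose with TGF-β and 0 fell (median log2 ratio 0.53). The desaturase gene SCD went from 555 to 2173 CPM, FASN, fatty acid synthase, from 279 to 845 and FADS2 from 197 to 487. With BDS4 against TGF-β, 2 fell and 1 rose (median -0.10). FADS2 fell 2.41-fold (2.32 to 2.49), to 203 CPM, and the elongase gene ELOVL6 4.91-fold (4.27 to 5.66), while ACSL1, an acyl-CoA synthetase, rose 4.02-fold (3.60 to 4.50). FASN stood at 795 CPM with BDS4 and 1108 with RVX-208. With RVX-208 1 rose, TMEM97, by 2.08-fold (1.94 to 2.23), and 0 fell (median 0.18).

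Of 14 genes for SREBP cleavage and sterol-regulated protein degradation, 0 rose and 1 fell with TGF-β, PAQR3, a Golgi anchor of SCAP (median -0.01). With BDS4 the median was -0.16, and RNF145 and TMUB1 fell 2.32-fold (2.14 to 2.51) and 2.18-fold (1.98 to 2.40). With RVX-208 1 rose, PAQR3, by 3.21-fold (2.85 to 3.63) (median 0.24). PAQR3 shares 45.5% of its exon bases with BMP2K on the other strand. BMP2K had 2271 counts in the control, 1904 with TGF-β alone and 1638 with RVX-208, and PAQR3 had 881, 380 and 930. The part of BMP2K in the PAQR3 counts was not tested. Of 7 genes for sterol efflux and targets of LXR, 1 rose with TGF-β, the efflux pump gene ABCA1, from 42.6 to 118 CPM. It fell 3.94-fold (3.60 to 4.31) with BDS4, to 29.9 CPM. MYLIP, a ubiquitin ligase of lipoprotein receptors, rose 4.21-fold (3.73 to 4.75). None of the 7 was called with RVX-208 (medians 0.26, -0.35 and 0.03 in the 3 comparisons).

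Of 16 genes for sterol transport and ester hydrolysis, none was called with TGF-β or with RVX-208 (medians 0.00 and 0.01), and 5 rose and 3 fell with BDS4 (median 0.23). The sterol carrier gene STARD5 rose 3.75-fold (2.99 to 4.73) and the lipoprotein receptor gene VLDLR 2.93-fold (2.60 to 3.32). CAV1, caveolin-1, fell 3.35-fold (3.20 to 3.51), and GRAMD1B, which moves sterol from the plasma membrane to the endoplasmic reticulum, fell 3.76-fold (2.94 to 4.87). The other called genes were LIPA, NCEH1 and SCARB2, which rose, and LRP1, which fell. Of 14 genes that use isoprenoids, 0 were called with TGF-β or RVX-208, and 1, the farnesyltransferase subunit gene FNTB, fell 2.38-fold (2.10 to 2.72) with BDS4 (medians -0.05, 0.07 and -0.12). None of these lists was tested as a set. With 32.2% of all tested genes past the rule with BDS4, the counts in that comparison are to be read against this share. For TGF-β the shares were 5.32% higher and 4.35% lower, and for RVX-208 2.94% and 5.23%.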

How the data were processed

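Per the series' design text, RNA from LX-2 cells was sequenced as stranded, paired-end mRNA libraries, and FPKM values were made with StringTie 1.3.0. TopHat2 2.0.6, CASAVA 1.8 and GRCh38 are named in the submitters' processing notes. The authors deposited, per the file headers, a raw count (a whole number) and an FPKM value for each gene. No source used here names the counting program, annotation release or strand setting. Columns were matched to groups through the sample descriptions, and the column for BDS4 carries a code that does not name it. In 9069 genes with more than 200 counts, count and FPKM gave 1 length per gene to within 0.00042%.

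TMM factors from edgeR 4.0.16 (R 4.3.3) scaled the counts and were computed over genes with at least 1 raw CPM in some library. Genes with at least 1 scaled CPM in some library were tested, 16099 in all. Ratios have 95% conditional exact (Clopper-Pearson) intervals, checked on simulated data. With 1 library per group, edgeR was used for scaling only. Members called in any of 6 comparisons, and their paired members, are given in all libraries, and other lists by counts with up to 4 named genes each, the called ones with the largest ratios with TGF-β or BDS4. TMEM97, PAQR3 with RVX-208 and the completed lists of called genes were named after their values were seen. For the list of SREBP cleavage and protein degradation, 1 result with BDS4 is not reported here. The members and lists were chosen with earlier results of these data known. Alternatives were total-count scaling, DESeq2 1.42.0 size factors, other filters, a 1.5-fold rule, the mean, and sums over genes sharing exons in GENCODE 29. Calculations used Python 3.11.15, numpy 2.4.6, scipy 1.17.1, pandas 2.3.3 and matplotlib 3.10.9.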

Additional observations from a re-analysis of the deposited data

How the results depend on the processing

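No paired analysis was possible because each group has 1 library. For the same reason no replicate could be left out. The counts of members called and the medians in the 6 comparisons stayed within 1.5 times, or within the median counting interval, under DESeq2 size factors, without a filter and with a filter at 5 CPM. Scalings chosen after seeing the data, without mitochondrial genes and, for comparisons that do not use BDS4, without the BDS4 library, did the same. Total-count scaling moved the median log2 ratio of all tested genes by -0.17 (BDS4 against control) and -0.10 (RVX-208 against control), and by less in the other comparisons. Under it the member median was 0.67 for TGF-β, 0.32 for BDS4 and 0.71 for RVX-208, each against control. The number higher was then 3 with BDS4 against TGF-β and 1 with BDS4 against RVX-208, and the number lower was 1 with BDS4 against control. With TMM factors over all genes, also chosen after seeing the data, 1 member was higher with BDS4 against RVX-208. Summing genes that share exons left 1 higher with BDS4 against RVX-208 and 0 with RVX-208 against TGF-β. At 1.5-fold, 13 were higher with BDS4 against control, 20 with RVX-208 against control, 5 with BDS4 against RVX-208 and 2 with RVX-208 against TGF-β, while 2 were lower with BDS4 against control and 1 with TGF-β against control. The mean in place of the median gave -0.12 for BDS4 against TGF-β. No called ratio of a member changed direction under the scalings or the summed genes. Of 55 calls over the 6 comparisons, total-count scaling ended 6, summed genes 5, TMM factors over all genes 2 and DESeq2 size factors 1. Those ended by summing were of GGPS1 and of TM7SF2, where the sum cannot decide. NSDHL was the one member at or under the floor of 3 counts in every library.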
